A study of Homo sapiens with 12 samples.

Results

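The 43 genes described here encode proteins that work in or on the lysosome. Their classes are cathepsins and other proteases, glycosidases, sulfatases, enzymes and carriers of lipids, membrane proteins and regulators, parts of the proton pump, and the transcription factor TFEB. The genes were chosen by symbol, with no threshold on a measured value, but with earlier results of these data known. The shares of members called are therefore descriptions beside those of all genes, and no excess was tested. All 43 were found among the 29735 genes listed in both count tables, which together list 36675 genes. RNA-seq libraries were made from total RNA of A375 and CHL1, which are 2 human lines of melanoma cells, and of a derivative of each line that resists palbociclib, an inhibitor of the cell cycle kinases CDK4 and CDK6. A375AR991 arose from A375 during 7 months under rising palbociclib, and CHL1AR991 arose from CHL1 during 3 months. Once resistant, both derivatives were kept in supplemented RPMI medium with 4 µM palbociclib, while parental A375 and CHL1 were grown in that medium without drug. The labels give a stay of 72 h in drug-free medium before RNA extraction for all 12 libraries, so the drug was absent from the medium when RNA was taken. Each of the 4 groups has 3 libraries. The labels name 1 resistant derivative per line and do not say that the libraries of a group came from separate cultures. The p-values therefore measure only the spread between these libraries, which may be technical, and drug selection cannot be told apart from anything else that changed in that derivative.

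Lysosomes are acidic compartments in which hydrolases break down proteins, glycans and lipids that arrive by endocytosis or autophagy. The vacuolar H+-ATPase acidifies them, heavily glycosylated membrane proteins line them, and inherited loss of a hydrolase or carrier leads to a lysosomal storage disease. TFEB, a relative of the melanocyte regulator MITF, binds a palindrome called the CLEAR element in the promoters of many lysosomal genes. Palbociclib is a weak base, a kind of compound that collects in acidic compartments.

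The CLEAR palindrome GTCACGTGAC contains the shorter palindromes TCACGTGA and CACGTG, and each reads the same on both strands. RefSeq promoters of GRCh38.p14, which run from 250 bases before to 50 bases after each start, were at hand for 30 of the 43 genes. A gene was counted if any of its promoters held the letters. The 30 genes have 45 promoters and the 27305 genes in the promoter table have 35116, so members had more promoters per gene. CACGTG was present in 11 of these 30 (36.7%), against 8.77% of the 27305 genes. TCACGTGA was present in 6 of the 30 (20%), against 1.18% of all genes, and the whole GTCACGTGAC in 2 of the 30 (6.67%), against 0.421%. The windows of 30 bases around the 6 longer matches are shown because they hold the letters that TFEB is known to read. They run 5′ to 3′ on the strand of the gene, with the match in capitals.
GAA: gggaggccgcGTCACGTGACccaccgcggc
MCOLN1: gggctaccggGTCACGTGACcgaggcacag
LAMP1: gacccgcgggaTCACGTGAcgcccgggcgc
CLN3: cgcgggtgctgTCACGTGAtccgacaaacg
CTSA: ggcgccggagtTCACGTGActcgtacacat
ATP6V0D1: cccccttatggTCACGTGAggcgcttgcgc
On GRCh38.p14 the windows lie at chr17:80101493-80101522 (GAA), chr19:7522598-7522627 (MCOLN1), chr13:113297199-113297228 (LAMP1) and chr20:45891298-45891327 (CTSA) on the plus strand, and at chr16:28492058-28492087 (CLN3) and chr16:67481199-67481228 (ATP6V0D1) on the minus strand. The LAMP1 promoter held 6 copies of CACGTG, and the TFEB promoters in the table held none. A match describes letters in a window and is no evidence of binding in these cells.

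Library depth was even, with totals from 25398920 to 29812686 counts. All levels are normalised CPM, in which the counts of the 12 libraries were brought to the same depth, with group means followed by their SD (n = 3), and 3 counts in a library stood for 0.101 to 0.118 CPM (counting error only). The melanocyte factor SOX10 was high everywhere, at 296 ± 82.0 CPM in A375AR991, 400 ± 80.8 CPM in A375, 1031 ± 93.3 CPM in CHL1AR991 and 1052 ± 112 CPM in CHL1. S100B was at 12.3 ± 3.56 CPM in A375AR991, 18.1 ± 7.63 CPM in A375, 184 ± 9.84 CPM in CHL1AR991 and 114 ± 3.11 CPM in CHL1. Of the pigment genes, DCT was at 19.1 ± 0.432 CPM in CHL1AR991 and 44.6 ± 2.74 CPM in CHL1 but averaged 0.396 CPM in A375AR991 and 0.0878 CPM in A375. TYRP1 averaged between 0.210 and 1.74 CPM over the 4 groups, PMEL and MLANA between 0.460 and 1.07 CPM, and TYR averaged 0.496 CPM in CHL1AR991 and 0.506 CPM in CHL1 and was not listed in the A375 table. Macrophages are rich in lysosomes, so markers of leukocytes were summed. Over 8 markers they reached 4.96 to 5.24 CPM in A375AR991, 7.95 to 9.91 CPM in A375, 9.97 to 11.4 CPM in CHL1AR991 and 10.2 to 11.4 CPM in CHL1, and in CHL1 nearly all of it was PTPRC. Summed fibroblast markers ran from 44.9 to 54.1 CPM in A375AR991, against 14.3 to 16.4 CPM in A375, and summed epithelial markers from 341 to 475 CPM in A375AR991 and A375, against 22.9 to 26.3 CPM in CHL1AR991 and CHL1. Their part in the results below was not tested. In such bulk RNA, fewer cells with a transcript and less of it per cell cannot be told apart.

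Together the 43 genes took 0.328% ± 0.0083 of all counts in A375AR991 and 0.370% ± 0.0119 in A375, and 0.813% ± 0.0303 in CHL1AR991 and 0.764% ± 0.0145 in CHL1 (SD, n = 3 each). The A375AR991 libraries all lay below the A375 libraries, whereas the CHL1AR991 and CHL1 libraries overlapped. That overlap rested on ASAH1. Without it, the summed normalised CPM was 6877, 7453 and 7183 in CHL1AR991, against 6716, 6407 and 6634 in CHL1, with no overlap. Per kilobase of exon, PSAP, the precursor of the saposins that help hydrolases reach sphingolipids, stood first in A375AR991 at 133 RPKM (normalised CPM per kilobase of exon), in CHL1AR991 at 420 RPKM and in CHL1 at 359 RPKM. In A375 it was at 134 RPKM, behind CTSZ at 144 RPKM. The least abundant per kilobase was TFEB in A375AR991 (0.186 RPKM) and A375 (0.400 RPKM), and CTSS in CHL1AR991 (0.378 RPKM) and CHL1 (0.519 RPKM). PSAP lay at percentile 98.7 of 16524 protein-coding genes in A375AR991 and in A375, at 99.8 in CHL1AR991 and at 99.7 in CHL1.

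The first comparison asked which lysosomal transcripts differed between palbociclib-resistant A375AR991 cells and parental A375 cells. Most of those that differed were lower in A375AR991. Among these were the collagen-degrading cathepsin CTSK, the sulfatase IDS, the transcription factor TFEB, the proton pump protein ATP6AP1, the acid lipase LIPA and the cathepsin CTSZ. Also lower were 5 of 7 membrane proteins and regulators, including LAMP1 and LAMP2. By edgeR's quasi-likelihood F-test, with Benjamini-Hochberg adjustment over 18086 genes and a threshold of 0.05, 16 of the 43 genes fell and 4 rose. These 20 are 46.5% of the members, beside 28.3% of all genes tested (13.4% up and 14.8% down). The median log2 fold change of the members was -0.11, beside -0.000844 over all genes. Among members of at least 10 CPM, 17 of 38 (44.7%) passed, beside 31.6% of such genes. The 23 members that did not pass ranged from -0.22 (ARSA) to 0.25 (CTSF) on the log2 scale. The 16 that fell varied between 14 and 17 when each library was left out in turn. The 4 that rose became 2 without A375 replicate 3 and 1, CTSL, without A375AR991 replicate 3.

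**Figure D1:**
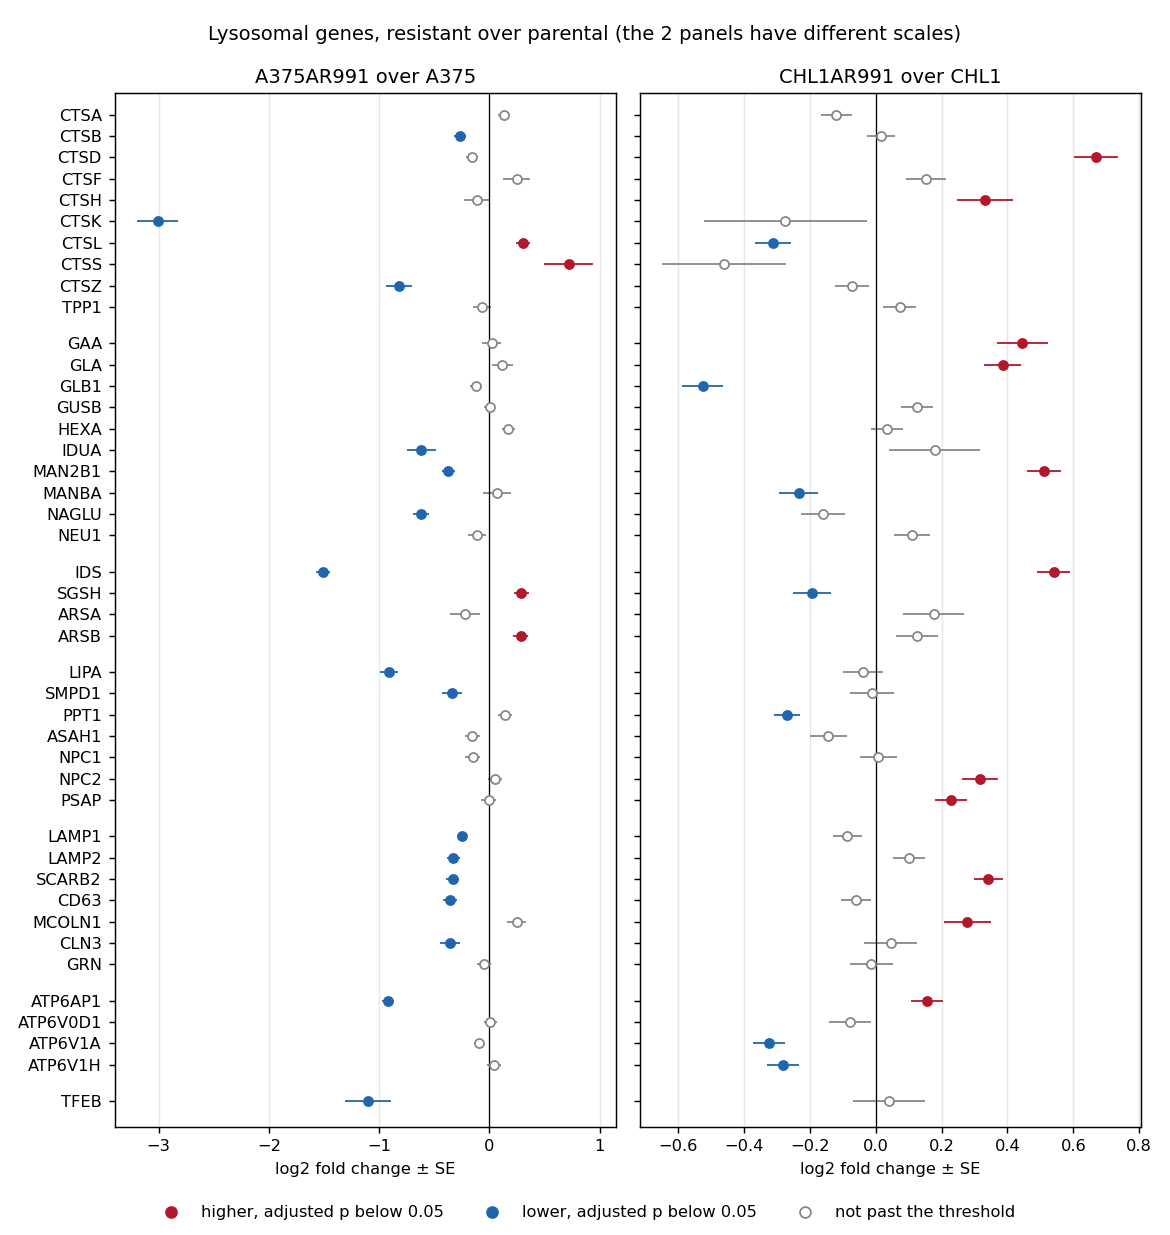
Log2 fold change ± SE of each of the 43 lysosomal genes, A375AR991 over A375 on the left and CHL1AR991 over CHL1 on the right, on scales that differ between panels. Genes run down the page by role, and filled symbols passed the adjusted p threshold of 0.05. In A375AR991, 16 filled symbols lie left of 0 and 4 right of it, with CTSK at -3.01 farthest out; in CHL1AR991, 11 lie right of 0 and 7 left of it, none beyond 0.67.

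Of the 10 proteases, CTSK, CTSZ and CTSB fell in A375AR991, and CTSL and CTSS rose. CTSK (ENSG00000143387, chromosome 1), a cysteine protease best known for breaking down bone collagen in osteoclasts, had 0.674, 0.733 and 0.861 CPM in A375AR991, against 7.14, 5.82 and 5.38 CPM in A375. Every A375AR991 library lay far below every A375 library. The log2 fold change was -3.01 ± 0.19 (SE; edgeR adjusted p = 1.53e-05), an 8.05-fold lower level. CTSZ (ENSG00000101160, chromosome 20), a carboxypeptidase, had 171, 144 and 185 CPM in A375AR991, against 344, 273 and 266 CPM in A375. The groups did not overlap, and the log2 fold change was -0.82 ± 0.12 (edgeR adjusted p = 0.000921). CTSB, an abundant cysteine cathepsin, fell less, to 161 ± 3.60 CPM in A375AR991, against 194 ± 11.7 CPM in A375 (log2 fold change -0.26). The cysteine cathepsin CTSL rose to 122 ± 9.77 CPM in A375AR991, against 98.9 ± 3.10 CPM in A375 (log2 fold change 0.31). CTSS (ENSG00000163131, chromosome 1), known for processing the MHC class II invariant chain in antigen-presenting cells, had 3.07, 4.46 and 5.52 CPM in A375AR991, against 2.54, 2.97 and 2.42 CPM in A375. The groups were apart by little, the A375AR991 libraries were the more scattered, and the log2 fold change was 0.72 ± 0.22 (edgeR adjusted p = 0.0389). The CTSS call was lost without A375 replicate 1 (adjusted p = 0.0956), A375 replicate 2 (0.0504), A375 replicate 3 (0.0993), A375AR991 replicate 2 (0.0828) or A375AR991 replicate 3 (0.131). CTSS and CTSK are adjacent among the tested genes of chromosome 1, so genes next to each other moved in opposite directions. The aspartic protease CTSD (ENSG00000117984, chromosome 11) had 136, 131 and 132 CPM in A375AR991, against 157, 144 and 144 CPM in A375. The groups did not overlap, but the log2 fold change of -0.15 ± 0.05 missed the threshold (edgeR adjusted p = 0.0604).

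Among the 10 glycosidases, NAGLU, IDUA and MAN2B1 fell in A375AR991 and none rose. NAGLU (ENSG00000108784, chromosome 17), a hexosaminidase of heparan sulfate breakdown, had 17.8, 16.9 and 17.7 CPM in A375AR991, against 28.5, 25.9 and 26.1 CPM in A375. The groups were well apart (log2 fold change -0.62 ± 0.07, edgeR adjusted p = 0.000386). IDUA (ENSG00000127415, chromosome 4), which removes iduronic acid from heparan and dermatan sulfate, had 6.68, 8.99 and 8.43 CPM in A375AR991, against 13.1, 12.8 and 11.2 CPM in A375. The groups did not overlap (log2 fold change -0.62 ± 0.13, edgeR adjusted p = 0.00812). Of the IDUA exons, 13.4% overlap SLC26A1 on the opposite strand, and reads of the 2 genes cannot be separated there. MAN2B1 (ENSG00000104774, chromosome 19), an alpha-mannosidase, had 65.3, 63.5 and 69.3 CPM in A375AR991, against 90.04, 81.3 and 85.2 CPM in A375. Again all A375AR991 libraries were the lower ones (log2 fold change -0.37 ± 0.06, edgeR adjusted p = 0.00207). The other 7 glycosidases, among them the beta-galactosidase GLB1 at 43.6 ± 1.92 CPM in A375AR991 and 47.5 ± 0.883 CPM in A375, did not pass the threshold.

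The sulfatases split. IDS (ENSG00000010404, chromosome X), which takes sulfate off iduronic acid ahead of IDUA, had 25.9, 27.7 and 27.5 CPM in A375AR991, against 79.7, 77.8 and 74.0 CPM in A375. The libraries of each group lay close together and the groups far apart (log2 fold change -1.51 ± 0.06, edgeR adjusted p = 2.39e-06), a 2.85-fold lower level. IDS has a pseudogene copy nearby, and reads that the counting may have split between them cannot be told apart here. SGSH, which desulfates glucosamine in heparan sulfate, rose to 29.6 ± 0.828 CPM in A375AR991, against 24.2 ± 1.39 CPM in A375, and ARSB, which desulfates dermatan sulfate, to 26.9 ± 1.21 CPM in A375AR991, against 22.1 ± 0.400 CPM in A375 (both log2 fold changes 0.29). The SGSH call was lost without A375 replicate 3 (edgeR adjusted p = 0.0536) or A375AR991 replicate 3 (0.0561), and the ARSB call without A375AR991 replicate 1 (0.0586) or replicate 3 (0.0570). ARSA, the sulfatase of myelin sulfatide, did not pass. Along the heparan sulfate pathway, then, IDS, IDUA and NAGLU fell in A375AR991 while SGSH rose.

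Of the 7 genes of lipid breakdown and transport, LIPA and SMPD1 fell in A375AR991. LIPA (ENSG00000107798, chromosome 10), the acid lipase that frees cholesterol from its esters, had 27.4, 27.0 and 26.6 CPM in A375AR991, against 49.99, 45.6 and 56.3 CPM in A375. The A375AR991 libraries were nearly identical and all lower (log2 fold change -0.91 ± 0.08, edgeR adjusted p = 0.000101). SMPD1, the acid sphingomyelinase, fell to 14.7 ± 1.22 CPM in A375AR991, against 18.5 ± 0.835 CPM in A375 (log2 fold change -0.34). The SMPD1 call was lost without A375 replicate 3 (edgeR adjusted p = 0.0794), A375AR991 replicate 1 (0.0735) or A375AR991 replicate 2 (0.0836). PSAP was at 431 ± 35.4 CPM in A375AR991 and 433 ± 20.5 CPM in A375, and the cholesterol carriers NPC1 and NPC2, the thioesterase PPT1 and the acid ceramidase ASAH1 did not pass either.

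The membrane proteins that passed were all lower: LAMP1, LAMP2, SCARB2, CD63 and CLN3 fell in A375AR991. None of the 7 membrane proteins and regulators rose, a class that also holds GRN. LAMP1 (ENSG00000185896, chromosome 13), an abundant glycoprotein of the lysosomal membrane, had 226, 226 and 213 CPM in A375AR991, against 269, 265 and 255 CPM in A375. The groups did not overlap (log2 fold change -0.25 ± 0.05, edgeR adjusted p = 0.00538). LAMP2, which also serves chaperone-mediated autophagy, fell to 81.0 ± 5.21 CPM in A375AR991, against 102 ± 3.97 CPM in A375 (log2 fold change -0.33). SCARB2, the receptor that carries glucocerebrosidase to lysosomes, fell to 91.2 ± 4.98 CPM in A375AR991, against 115 ± 6.21 CPM in A375 (log2 fold change -0.33). The tetraspanin CD63 fell by 0.35 and CLN3, mutated in juvenile Batten disease, by 0.35 on the log2 scale. Of the CLN3 exons, 25.2% are shared with another annotated gene on the same strand. The CLN3 call was lost without A375 replicate 3 (edgeR adjusted p = 0.0554), A375AR991 replicate 1 (0.0614) or A375AR991 replicate 3 (0.0649). The calcium channel MCOLN1 was at 24.01 ± 2.24 CPM in A375AR991 and 20.2 ± 0.540 CPM in A375 and missed the threshold (edgeR adjusted p = 0.0586), and the growth factor precursor GRN did not pass.

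The proton pump parts and TFEB complete the A375 comparison. ATP6AP1 (ENSG00000071553, chromosome X), an accessory protein of the V-ATPase, had 50.9, 49.96 and 53.1 CPM in A375AR991, against 100.4, 97.1 and 94.1 CPM in A375. The groups were far apart beside their spread (log2 fold change -0.92 ± 0.05, edgeR adjusted p = 1.22e-05), a 1.89-fold lower level. The 3 other parts, the catalytic subunit ATP6V1A and the subunits ATP6V0D1 and ATP6V1H, lay between -0.09 and 0.04 and did not pass. TFEB (ENSG00000112561, chromosome 6) had 1.15, 0.893 and 1.11 CPM in A375AR991, against 2.62, 1.78 and 2.38 CPM in A375. It was a rare message in both groups, and every A375AR991 library had less of it (log2 fold change -1.10 ± 0.21, edgeR adjusted p = 0.00432). Of the 6 genes with a TCACGTGA window shown above, LAMP1 and CLN3 fell in A375AR991, none rose and 4 did not pass, too few genes to set apart from the 28.3% called among all genes.

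**Figure D2:**
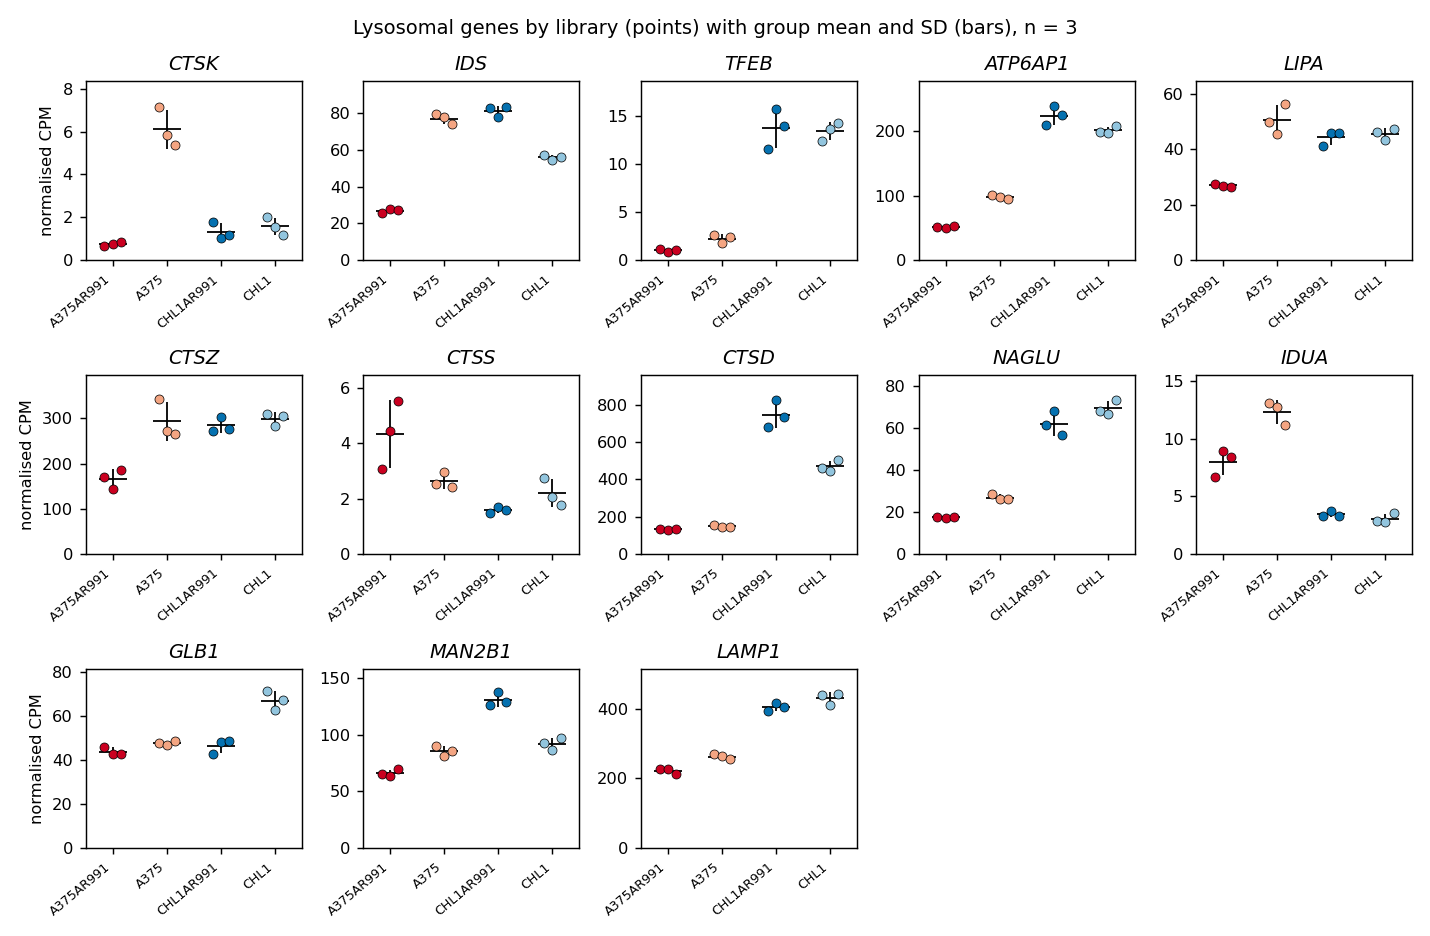
Normalised CPM in each library (points) with the group mean and SD (bars, n = 3) for 12 of the members called in at least 1 line, by largest absolute log2 fold change, and for LAMP1. Each vertical axis starts at 0 and has its own scale. CTSK, IDS, ATP6AP1 and LIPA are lower in all A375AR991 libraries than in all A375 libraries, and CTSD, IDS and MAN2B1 are higher in all CHL1AR991 libraries than in all CHL1 libraries.

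The same question was asked of CHL1AR991 against parental CHL1. Here more members were higher in the resistant cells: the aspartic protease CTSD, the sulfatase IDS, the glycosidases MAN2B1, GAA and GLA, the cholesterol carrier NPC2, PSAP and the membrane proteins SCARB2 and MCOLN1 rose, while GLB1, CTSL and 2 subunits of the pump fell. By the same edgeR test over 17219 genes, 11 of the 43 rose and 7 fell. These 18 are 41.9% of the members, beside 21.0% of all genes tested (9.5% up and 11.5% down). The median log2 fold change of all 43 members was 0.03, beside 0.0058 over all genes, and no called change reached 2-fold. Among members of at least 10 CPM, 18 of 40 (45.0%) passed, beside 27.1% of such genes. The 25 that did not pass ranged from -0.46 (CTSS) to 0.18 (IDUA). With each library left out in turn, 8 to 12 members rose and 5 to 8 fell.

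CTSD carried the largest change in CHL1AR991. It had 681, 822 and 733 CPM in CHL1AR991, against 463, 445 and 502 CPM in CHL1. The groups were far apart, though CHL1AR991 libraries were the more scattered (log2 fold change 0.67 ± 0.07, edgeR adjusted p = 4.05e-05). An annotated gene on the same strand shares 41.7% of the CTSD exon length, with 57 counts in the CHL1 table beside 97202 for CTSD. CTSH, an aminopeptidase among the cathepsins, rose to 14.8 ± 1.38 CPM in CHL1AR991, against 11.8 ± 0.503 CPM in CHL1 (log2 fold change 0.33). The CTSH call was lost without CHL1 replicate 2 (edgeR adjusted p = 0.0739), CHL1AR991 replicate 2 (0.0703) or CHL1AR991 replicate 3 (0.0564). CTSL fell to 69.0 ± 3.97 CPM in CHL1AR991, against 85.8 ± 3.56 CPM in CHL1 (log2 fold change -0.31). CTSK had 1.78, 1.01 and 1.20 CPM in CHL1AR991 and 2.00, 1.56 and 1.20 CPM in CHL1, CTSS had 1.5, 1.7 and 1.60 CPM in CHL1AR991 and 2.75, 2.08 and 1.76 CPM in CHL1, and CTSZ had 272, 304 and 277 CPM in CHL1AR991 and 309, 283 and 306 CPM in CHL1. None of these 3 passed, and in CTSK and CTSZ the groups overlapped.

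Glycosidases moved both ways in CHL1AR991. MAN2B1 had 126, 138 and 128 CPM in CHL1AR991, against 92.9, 86.1 and 96.8 CPM in CHL1 (log2 fold change 0.51 ± 0.05, edgeR adjusted p = 4.92e-05), with no overlap. GLB1 (ENSG00000170266, chromosome 3), the enzyme behind senescence-associated beta-galactosidase staining, had 42.7, 47.9 and 48.4 CPM in CHL1AR991, against 71.1, 62.6 and 66.9 CPM in CHL1. It was the member that fell furthest in this line (log2 fold change -0.53 ± 0.06, edgeR adjusted p = 0.000129). GAA, the glycogen-degrading glucosidase deficient in Pompe disease, rose to 132 ± 14.3 CPM in CHL1AR991, against 97.1 ± 8.63 CPM in CHL1 (log2 fold change 0.45), and GLA, the galactosidase deficient in Fabry disease, to 90.6 ± 4.71 CPM in CHL1AR991, against 69.4 ± 3.69 CPM in CHL1 (log2 fold change 0.39). MANBA, a beta-mannosidase, fell by 0.23 on the log2 scale, a call lost without CHL1 replicate 1 (edgeR adjusted p = 0.0693). NAGLU had 61.2, 67.8 and 56.7 CPM in CHL1AR991 and 68.0, 66.6 and 73.2 CPM in CHL1, and IDUA had 3.33, 3.73 and 3.30 CPM in CHL1AR991 and 2.86, 2.78 and 3.55 CPM in CHL1, and in both the groups overlapped.

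Among the sulfatases, IDS had 82.7, 77.9 and 83.2 CPM in CHL1AR991, against 57.4, 54.3 and 56.2 CPM in CHL1. The groups were well apart (log2 fold change 0.54 ± 0.05, edgeR adjusted p = 1.97e-05), in the opposite direction to A375AR991. SGSH fell to 46.6 ± 2.01 CPM in CHL1AR991, against 53.4 ± 2.69 CPM in CHL1 (log2 fold change -0.19). The SGSH call was lost without CHL1 replicate 1 (edgeR adjusted p = 0.0902), CHL1 replicate 3 (0.0933), CHL1AR991 replicate 1 (0.0568) or CHL1AR991 replicate 3 (0.120). Of the lipid genes, NPC2, which hands cholesterol to NPC1, rose to 54.2 ± 2.46 CPM in CHL1AR991, against 43.6 ± 1.79 CPM in CHL1 (log2 fold change 0.32). PSAP rose to 1361 ± 69.0 CPM in CHL1AR991, against 1163 ± 43 CPM in CHL1 (log2 fold change 0.23). PPT1, which removes palmitate from proteins, fell to 197 ± 1.57 CPM in CHL1AR991, against 238 ± 5.72 CPM in CHL1 (log2 fold change -0.27), but 23.4% of its exon length overlaps the more highly counted CAP1 on the opposite strand, and reads there cannot be assigned by strand. LIPA had 41.1, 46.1 and 46.0 CPM in CHL1AR991 and 46.3, 43.4 and 47.3 CPM in CHL1 and did not pass.

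SCARB2 rose to 357 ± 9.73 CPM in CHL1AR991, against 282 ± 8.96 CPM in CHL1 (log2 fold change 0.34, edgeR adjusted p = 0.000203). MCOLN1 rose by 0.28 on the log2 scale, a call lost without CHL1 replicate 1 (edgeR adjusted p = 0.0591) or CHL1AR991 replicate 3 (0.0848). LAMP1 had 395, 417 and 407 CPM in CHL1AR991 and 441, 412 and 443 CPM in CHL1. The groups overlapped and it did not pass, nor did LAMP2, CD63, CLN3 or GRN. In the pump, ATP6V1A fell to 58.7 ± 1.76 CPM in CHL1AR991, against 73.6 ± 0.870 CPM in CHL1 (log2 fold change -0.32), and ATP6V1H to 52.0 ± 1.68 CPM in CHL1AR991, against 63.3 ± 0.745 CPM in CHL1 (log2 fold change -0.28). ATP6AP1 had 209, 238 and 224 CPM in CHL1AR991, against 198, 198 and 207 CPM in CHL1. The groups were barely apart (log2 fold change 0.16 ± 0.05, edgeR adjusted p = 0.0435), and the call was lost without CHL1 replicate 1 (adjusted p = 0.136), CHL1 replicate 2 (0.140), CHL1AR991 replicate 2 (0.150) or CHL1AR991 replicate 3 (0.106). TFEB had 11.6, 15.8 and 14.0 CPM in CHL1AR991 and 12.4, 13.7 and 14.3 CPM in CHL1, an overlap of the groups. Of the 6 genes with a TCACGTGA window, GAA and MCOLN1 rose in CHL1AR991, none fell and 4 did not pass, again too few to set apart from the 21.0% called among all genes.

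The lines were then set against each other. CTSL, MAN2B1, IDS, SGSH, SCARB2 and ATP6AP1 were called in both lines, and all 6 moved in opposite directions. Over all genes tested in both lines, 7.61% were called in both, and 46.8% of those moved in opposite directions. The count depended on the setting. Without CHL1 replicate 1, or without CHL1AR991 replicate 3, 4 genes were called in both lines, all 4 in opposite directions. Without A375 replicate 2 it was 8, of which 7 moved in opposite directions, and in the fit blocked by replicate number it was 9, of which 8 did. Of 7 called without A375AR991 replicate 2 or with no low-count filter, 6 moved in opposite directions, and of 6 called without CHL1AR991 replicate 2, 5 did. CTSL and SGSH were the ones higher in A375AR991 and lower in CHL1AR991, and the other 4 were lower in A375AR991 and higher in CHL1AR991. Of the remaining members, 14 passed in A375AR991 alone, 12 in CHL1AR991 alone and 11 in neither, which does not by itself show that the lines differ.

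The difference was tested directly as the effect in A375 minus the effect in CHL1, in 1 edgeR fit to all 12 libraries over 19241 genes. The effects differed for 26 of the 43 genes (60.5%), beside 23.6% of all genes tested (11.7% up and 11.9% down). Among the 26, 18 differences were negative and 8 positive. At 10 CPM or more, 22 of 39 members (56.4%) passed, beside 31.1% of such genes. CTSK (-2.74 ± 0.34, adjusted p = 4.47e-05), IDS (-2.05 ± 0.08, adjusted p = 6.40e-10), TFEB (-1.14 ± 0.24, adjusted p = 0.00296) and ATP6AP1 (-1.07 ± 0.08, adjusted p = 3.30e-07) differed most in the negative direction, and CTSS (1.18 ± 0.31, adjusted p = 0.0126) most in the positive direction. CTSD differed by -0.82 ± 0.09 through its rise in CHL1AR991, and LIPA by -0.87 ± 0.11 and CTSZ by -0.75 ± 0.14 through their falls in A375AR991. For LAMP1 the difference of -0.16 ± 0.07 did not pass (adjusted p = 0.0987), although LAMP1 was called in A375AR991 alone. CTSA, a carboxypeptidase that shields the sialidase NEU1 and was called in neither line, differed by 0.25 ± 0.07 (adjusted p = 0.0163). The comparisons of the derivatives and the differences between them use the same libraries.

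The members were also set beside their neighbours on the chromosome. For each member the median log2 fold change of its 20 nearest tested protein-coding genes was taken, 10 on each side (11 or 12 neighbours for ARSA, near a chromosome end). IDS (-1.51) lay among neighbours with a median of -1.64, of which 19 of 20 were negative, and ATP6AP1 (-0.92) among neighbours with a median of -1.0, of which 20 of 20 were negative; both genes are on chromosome X. LAMP2 (-0.33), on the same chromosome, lay among neighbours at -0.67, and LIPA (-0.91) on chromosome 10 among neighbours at -0.54. MAN2B1, LAMP1 and CD63 lay among neighbours at -0.31, -0.33 and -0.26. These 7 of the 16 members that fell had neighbours at or below -0.2, a limit set after the values were seen. The other 9 did not: the neighbours of CTSK stood at -0.02, of CTSZ at -0.05, of TFEB at -0.07, of IDUA at -0.07 and of NAGLU at -0.16. CTSB fell by 0.26 while its neighbours stood at 0.25. The share of all genes that fell in A375AR991 with neighbours at or below -0.2 was not counted, so 7 of 16 cannot be called unusual. In CHL1AR991, GLB1 and ATP6V1A, both on chromosome 3, and CTSL fell among neighbours at -0.31, -0.38 and -0.22. None of the 11 members that rose had neighbours at or above 0.2, the highest being NPC2 at 0.18 and CTSD at 0.16. DNA copy number was not measured in these files.

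**Figure D3:**
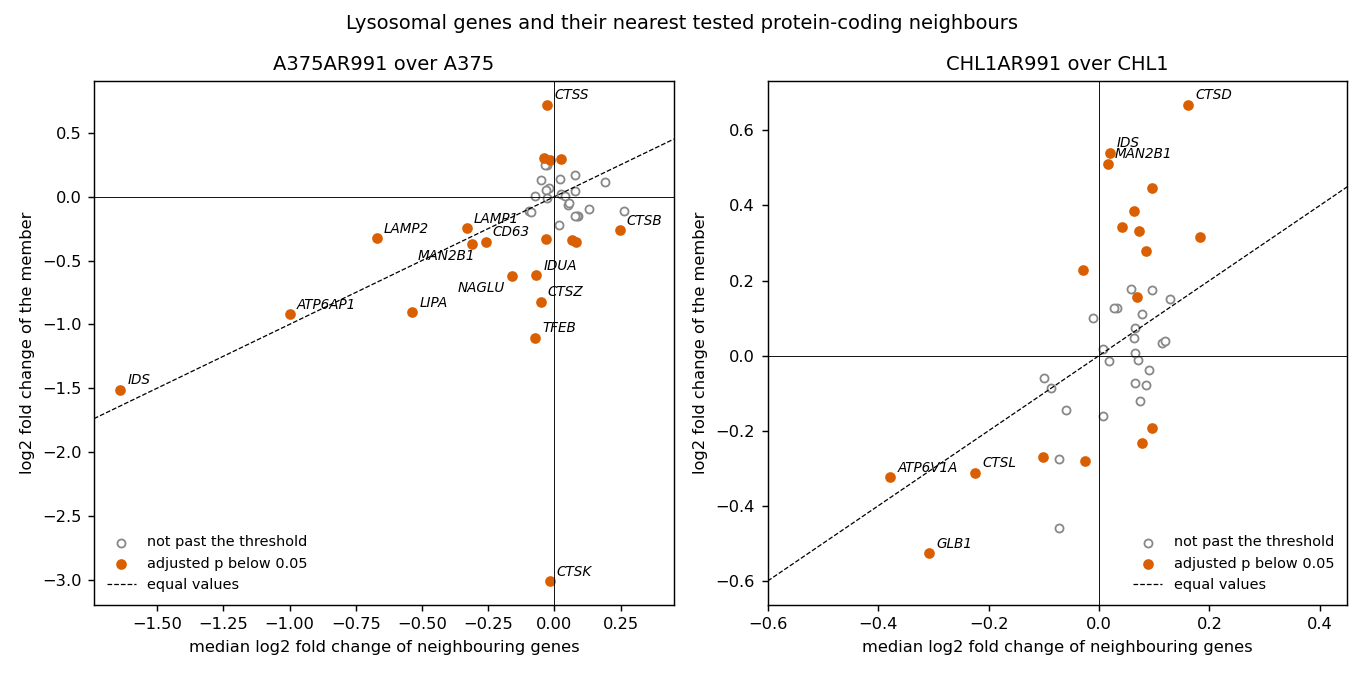
Log2 fold change of each lysosomal gene (vertical) against the median log2 fold change of its nearest tested protein-coding genes (horizontal), A375AR991 over A375 on the left and CHL1AR991 over CHL1 on the right, with filled points past the adjusted p threshold and a dashed line of equal values. In A375AR991, IDS and ATP6AP1 lie near the dashed line, far to the left at -1.64 and -1.0, while CTSK lies at -3.01 with a neighbour median of -0.02.

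More of these genes passed the test between A375 and CHL1 than within either line. Most members were lower in A375 than in CHL1, led by ASAH1, LAMP2, TFEB, ARSA and NEU1, and a few, such as IDUA, CTSK and NPC2, were higher. In the parental lines 38 of the 43 genes (88.4%) passed the edgeR test of A375 over CHL1, 31 lower and 7 higher in A375, beside 75.6% of all genes (38.2% up and 37.4% down). Between the derivatives, A375AR991 over CHL1AR991, 40 of 43 (93.0%) passed, 33 lower and 7 higher, beside 76.6% of all genes (38.0% up and 38.6% down). Among members of at least 10 CPM, 35 of 39 (89.7%) passed between the parental lines, 30 of them lower in A375, beside 83.6% of such genes (45.0% down). Between the derivatives it was 36 of 39 (92.3%), 31 of them lower in A375AR991, beside 84.8% (47.0% down). The median log2 fold change of the members was -0.78 in the parental lines and -0.99 in the derivatives, beside 0.03 and 0.0067 over all genes. Lower in both contrasts were 28 members, among them the proteases CTSB, CTSD, CTSF, CTSH and TPP1 and the glycosidases GAA, GLA, GUSB, HEXA, MANBA, NAGLU and NEU1. The rest of the 28 were the sulfatases SGSH, ARSA and ARSB, the lipid genes SMPD1, ASAH1, NPC1 and PSAP, all 7 membrane proteins and regulators, ATP6AP1 and TFEB. Higher in both were 5: CTSL, IDUA, NPC2, ATP6V0D1 and ATP6V1A. CTSZ, MAN2B1 and LIPA were lower, and CTSA and CTSS higher, between the derivatives and did not pass between the parental lines. GLB1, PPT1 and ATP6V1H were lower in A375 than in CHL1 and did not pass between the derivatives. For the genes that led the list of lower members, neighbours on the chromosome were read in A375 over CHL1 as well. Their median log2 fold changes were -1.08 for ASAH1, -0.01 for LAMP2, -0.70 for TFEB, -0.86 for ARSA and -0.23 for NEU1. The part of the region in the line differences was not tested. The lines were counted in separate tables, and the labels give no sequencing run, so line and batch cannot be told apart.

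**Figure D4:**
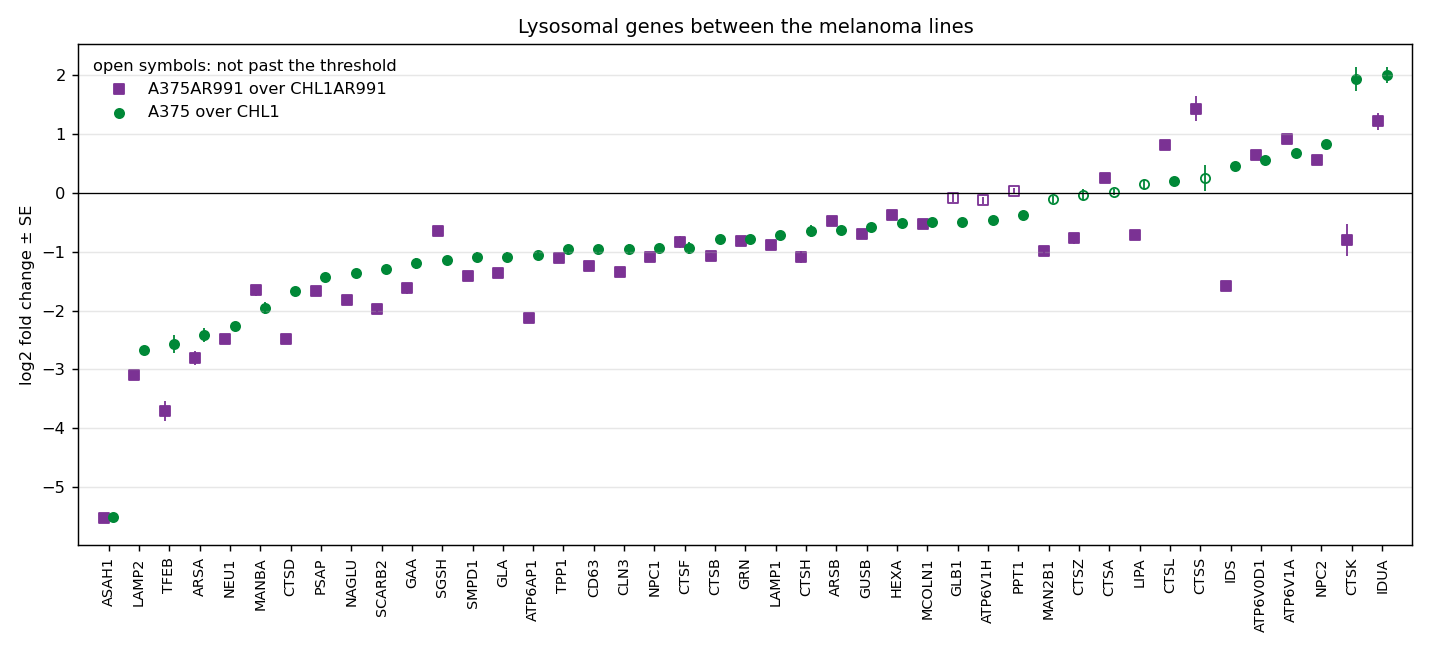
Log2 fold change ± SE of each lysosomal gene between the lines, A375AR991 over CHL1AR991 (squares) and A375 over CHL1 (circles), ordered by the parental contrast. Open symbols did not pass the threshold. Both symbols of ASAH1 lie near -5.5, most genes lie below 0, and CTSK and IDS lie above 0 for the parental lines and below 0 for the derivatives.

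ASAH1, LAMP2, NEU1 and ARSA are described for the size of their differences between lines, seen in the data. ASAH1, the acid ceramidase that turns ceramide into sphingosine, had 27.4, 25.6 and 28.8 CPM in A375AR991, against 1206, 1286 and 1272 CPM in CHL1AR991. In the parental lines it had 30.4, 29.8 and 30.8 CPM in A375, against 1448, 1447 and 1270 CPM in CHL1. The log2 fold change was -5.52 in both contrasts (edgeR adjusted p = 6.80e-17 in the derivatives and 6.27e-17 in the parental lines), and ASAH1 did not pass within either line. Without ASAH1 the summed level of the other 42 genes was 3114 ± 91.2 CPM in A375AR991, 3549 ± 103 CPM in A375, 7171 ± 288 CPM in CHL1AR991 and 6585 ± 160 CPM in CHL1. The lower summed level of both A375 groups thus did not rest on ASAH1. LAMP2 averaged 81.0 ± 5.21 CPM in A375AR991 and 688 ± 6.47 CPM in CHL1AR991, and 102 ± 3.97 CPM in A375 and 643 ± 34.0 CPM in CHL1. NEU1, the sialidase that CTSA protects, averaged 23.98 ± 1.85 CPM in A375AR991 and 135 ± 8.70 CPM in CHL1AR991, and 25.9 ± 1.79 CPM in A375 and 125 ± 6.31 CPM in CHL1. ARSA averaged 5.02 ± 0.716 CPM in A375AR991 and 35.1 ± 4.82 CPM in CHL1AR991, and 5.86 ± 0.251 CPM in A375 and 31.2 ± 2.35 CPM in CHL1. For TFEB the log2 fold change was -3.72 ± 0.17 between the derivatives and -2.57 ± 0.15 between the parental lines.

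CTSK and IDS were called in both contrasts with opposite directions. CTSK was lower in A375AR991 than in CHL1AR991 (log2 fold change -0.80 ± 0.27, edgeR adjusted p = 0.0136) and higher in A375 than in CHL1 (1.93 ± 0.20, adjusted p = 4.22e-07). The first of these calls was lost without CHL1AR991 replicate 1 (adjusted p = 0.0838). IDS was lower in A375AR991 than in CHL1AR991 (-1.59 ± 0.06) and higher in A375 than in CHL1 (0.46 ± 0.05). IDUA was higher in A375AR991 than in CHL1AR991 (1.22 ± 0.14) and higher in A375 than in CHL1 (2.01 ± 0.14). Of the 4 proton pump members, ATP6V1A and ATP6V0D1 were higher in A375AR991 than in CHL1AR991 and in A375 than in CHL1, while ATP6AP1 was lower in both. Of the 13 further V-ATPase subunits, 12 were lower and 1 higher in each of these contrasts. Their median log2 fold change was -0.66 between the derivatives and -0.72 between the parental lines. Over all genes tested, 38.6% were lower and 38.0% higher between the derivatives, and 37.4% lower and 38.2% higher between the parental lines.

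Other genes of lysosome biogenesis were read from 6 further lists. Of 20 transcription factors and regulators around TFEB, 2 rose and 4 fell in A375AR991, and 0 rose and 5 of 19 fell in CHL1AR991. RRAGD, a Rag GTPase that brings TFEB to the lysosome, rose in A375AR991 (log2 fold change 0.77) and fell in CHL1AR991 (-0.64). The TFEB relative MITF fell in both, by 0.48 in A375AR991 and by 0.37 in CHL1AR991, and ZKSCAN3, described as a repressor of lysosomal genes, rose in A375AR991 (0.59). The MITF levels were 33.1 ± 7.53 CPM in A375AR991 and 46.2 ± 4.98 CPM in A375, and 25.8 ± 1.02 CPM in CHL1AR991 and 33.4 ± 2.64 CPM in CHL1. TFE3, the third relative and picked after its values were seen, was at 89.1 ± 3.59 CPM in A375AR991 and 110 ± 4.38 CPM in A375 (log2 fold change -0.30, edgeR adjusted p = 0.00419). RRAGC, a close relative of RRAGD, fell in CHL1AR991 (-0.26).

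Of 27 further hydrolases, 3 rose and 8 fell in A375AR991, and 5 rose and 2 of 26 fell in CHL1AR991. The acid nuclease DNASE2 fell in A375AR991 to 13.5 ± 1.58 CPM, against 28.9 ± 0.985 CPM in A375 (log2 fold change -1.10, edgeR adjusted p = 7.86e-05). The fucosidase FUCA1 fell in A375AR991 (-0.89) and in CHL1AR991 (-0.32), and the sialic acid esterase SIAE rose in A375AR991 (0.65). In CHL1AR991 the serine carboxypeptidase SCPEP1 rose (0.56) and the hyaluronidase HYAL2 fell (-0.33). Of 19 further membrane proteins tested, 1 rose and 4 fell in A375AR991, among them the RNA transporter SIDT2 (-0.46) and the channel TPCN1 (-0.34). In CHL1AR991, 2 of 20 rose, the lipid transporter ABCA2 (0.28) and LAPTM4B (0.16), and 0 fell.

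Of 13 further V-ATPase subunits, 0 rose and 3 fell in A375AR991 (ATP6V0E2, ATP6V0A1 and ATP6V0E1, from -0.34 to -0.19), and 0 rose and 2 fell in CHL1AR991 (ATP6V1G1, -0.22, and ATP6V1C1, -0.21). Of 13 genes that tag hydrolases with mannose 6-phosphate or sort them, 3 rose and 3 fell in A375AR991, with the phosphotransferase GNPTAB (-0.44) and the sorting receptor SORT1 (-0.34) lower and the uncovering enzyme NAGPA (0.32) higher. In CHL1AR991, 0 rose and 3 fell: the mannose 6-phosphate receptor M6PR (-0.27), the adaptor subunit AP1S1 (-0.27) and SORT1 (-0.19). Of 18 autophagy genes, 1 rose and 4 fell in A375AR991, among them WIPI1 (-0.67), MAP1LC3A (-0.54) and ATG9A (-0.26). In CHL1AR991, 3 rose and 2 of 17 fell, with the late endosome GTPase RAB7A (-0.49) and the conjugation enzyme ATG7 (-0.32) lower and GABARAPL1 (0.43) higher. The called shares of these 6 lists ran from 23.1% to 46.2% in A375AR991, beside 28.3% of all genes, and from 10% to 29.4% in CHL1AR991, beside 21.0%. Neighbours on the chromosome were read for the members only, not for the genes of these lists. Changes that these genes share with their region therefore cannot be told apart from changes of their own.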

How the data were processed

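Gene-level read counts were measured by RNA-seq in 12 libraries of 4 groups. The deposited values are raw counts per Ensembl gene in 2 tables, 1 per cell line. Total RNA was made into unstranded TruSeq libraries, per the labels' protocols. CASAVA 1.8.2, cutadapt 1.7, TopHat2, HTSeq 0.5 and limma are named per the submitters' processing notes, with the genome build and annotation not given in the sources used here. Reads of overlapping genes and near copies therefore cannot be assigned with certainty, and exon lengths and overlaps were taken from GENCODE 29. IDs without a symbol in the name table held 2.09% of the A375 counts and 1.77% of the CHL1 counts.

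Counts were tested with edgeR 4.0.16 (R 4.3.3): TMM scaling, filterByExpr with a minimum count of 10, the quasi-likelihood F-test, two-sided, and Benjamini-Hochberg adjustment over all genes tested. The 2 comparisons within a line were fitted per line, and the comparisons between lines and the difference of effects in 1 fit to 12 libraries. The SE is the size of the log2 fold change over the square root of F. Normalised CPM used the scaling of the 12-library fit, and RPKM divides it by exon length. The pipeline was tested on simulated data. Of simulated 1.5-fold changes it recovered 60% in A375AR991 over A375 and 68% in CHL1AR991 over CHL1. Recovery was 52% between the parental lines, 58% between the derivatives and 44% for the difference of effects. A member that did not pass may therefore still have changed by a small amount. Alternatives were size factors (RLE), other low-count filters, DESeq2 1.42.0, limma-voom 3.58.1, a replicate block and leaving out each library. Replicates differed by more than sampling noise.

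All 43 genes were accounted for. Members called in a comparison are named, values per library are given for the 12 with the largest change in a line and for LAMP1, CTSD and TFEB, and up to 3 called genes per line are named from each further list, except 1 that is not reported here. The members and lists were chosen with earlier results of these data known.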

Additional observations from a re-analysis of the deposited data

Results flagged for a closer look

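The effect of resistance differed between the lines for 26 of the 43 genes (60.5%), beside 23.6% of all genes tested. By the edgeR interaction test, adjusted p ran from 6.40e-10 (IDS) to 0.0378 (NPC2). Values are the log2 fold change of A375AR991 over A375 minus that of CHL1AR991 over CHL1.

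Among the proteases the difference was -2.74 for CTSK, -0.82 for CTSD, -0.75 for CTSZ, -0.44 for CTSH, -0.28 for CTSB, 0.25 for CTSA, 0.62 for CTSL and 1.18 for CTSS. Cathepsins thus lay at both ends of the range. Among the glycosidases it was -0.88 for MAN2B1, -0.79 for IDUA, -0.46 for NAGLU, -0.42 for GAA and 0.41 for GLB1. The sulfatases IDS, at -2.05, and SGSH, at 0.49, differed in opposite directions.

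Among the lipid genes the difference was -0.87 for LIPA, -0.26 for NPC2 and 0.41 for PPT1. The 4 membrane proteins that differed were all negative: SCARB2 at -0.67, LAMP2 at -0.42, CLN3 at -0.40 and CD63 at -0.29. In the proton pump ATP6AP1 differed by -1.07, ATP6V1A by 0.23 and ATP6V1H by 0.32. TFEB differed by -1.14.

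The calls of 5 of these genes were lost when 1 library was left out. For CD63 this was A375AR991 replicate 2 (edgeR adjusted p = 0.0641). For CLN3 it was A375AR991 replicate 3 (0.0576), CHL1 replicate 1 (0.0538) or CHL1AR991 replicate 3 (0.0534). For CTSH it was A375 replicate 1 (0.0668), A375AR991 replicate 1 (0.0626) or 2 (0.0535), CHL1 replicate 2 (0.0699) or 3 (0.0591), and CHL1AR991 replicate 2 (0.0784) or 3 (0.0600). For GAA it was A375 replicate 1 (0.0753) or 3 (0.0518), A375AR991 replicate 2 (0.0928) or 3 (0.0979), CHL1 replicate 1 (0.0709) or 2 (0.0854), and CHL1AR991 replicate 2 (0.0870). For NPC2 it was A375 replicate 2 (0.0545) or 3 (0.0891), A375AR991 replicate 1 (0.0872) or 3 (0.139), CHL1 replicate 2 (0.0979) or 3 (0.0837), and CHL1AR991 replicate 1 (0.0505) or 3 (0.104).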

How the results depend on the processing

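No called gene changed direction under any alternative run, and no total of called members moved by more than 1.5 times. The count that rose in A375AR991 did: from 4 it became 1 without A375AR991 replicate 3, 2 without A375 replicate 3 and 8 in the fit with the replicate block. With each library left out in turn, 16 to 22 members were called in A375AR991 over A375, 14 to 18 in CHL1AR991 over CHL1, 38 to 39 in A375 over CHL1, 39 to 41 in A375AR991 over CHL1AR991, 23 to 27 in the difference of effects and 4 to 8 in both lines. The other settings gave 19 to 25, 18 to 20, 38 to 39, 40 to 41, 25 to 28 and 6 to 9 in that order of comparisons. All alternatives run kept 15 of 20, 13 of 18, 38 of 38, 39 of 40 and 21 of 26 calls. Besides the losses on leaving out a library, CTSS in A375AR991 was lost with limma-voom (adjusted p = 0.0577) and NPC2 in the difference of effects without a low-count filter (0.0520). The causes were not tested.

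With the replicate number as a block, 25 members were called in A375AR991 over A375 (8 up, 17 down), 18 in CHL1AR991 over CHL1, 38 and 40 between the lines, 28 in the difference of effects and 9 in both lines. Same-numbered libraries correlated at 0.208, 0.214 and -0.016 in A375 and at 0.09, 0.017 and -0.003 in CHL1. Libraries of different number correlated at -0.254 to 0.061 in A375 and at -0.062 to 0.045 in CHL1. Whether same-numbered samples share more than a number was not tested, and the labels do not say.

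Some members rest on few counts per library: CTSK (20 to 24 in A375AR991, 28 to 44 in CHL1AR991, 30 to 56 in CHL1), CTSS (37 to 47 in CHL1AR991, 44 to 77 in CHL1), TFEB (28 to 34 in A375AR991, 48 to 69 in A375) and IDUA (82 to 103 in CHL1AR991, 75 to 89 in CHL1). A small change in these was not detectable at this depth.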

Other observations

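Of the 20 further lysosomal membrane proteins, 14 were lower and 5 higher in A375 than in CHL1, and 12 were lower and 4 higher in A375AR991 than in CHL1AR991, by edgeR. Over all genes tested, 75.6% passed between the parental lines (37.4% lower and 38.2% higher in A375). Between the derivatives 76.6% passed (38.6% lower and 38.0% higher in A375AR991). The number called in this list was not tested against these shares. GPNMB and CD68, picked after their values were seen, are among the genes of this list that were higher in the A375 groups. GPNMB, a glycoprotein of melanosomes and lysosomes, was at 67.3 ± 3.55 CPM in A375AR991 and 70.0 ± 4.07 CPM in A375, against 0.465 ± 0.0896 CPM in CHL1AR991 and 0.412 ± 0.0928 CPM in CHL1 (SD, n = 3 each). CD68, a LAMP family protein best known from macrophages, was at 61.9 ± 9.05 CPM in A375AR991 and 58.9 ± 13.6 CPM in A375, against 1.34 ± 0.146 CPM in CHL1AR991 and 1.24 ± 0.0467 CPM in CHL1. They are exceptions within that list.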
